A study of Mus musculus with 28 samples.

Results

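Levels of 10 circadian clock genes were followed in mouse hippocampus. The genes were Per1, Per2, Cry1, Cry2, Arntl, Nr1d1, Nr1d2, Dbp, Ciart and Bhlhe41, which make up 10 of the 19938 genes that the array annotation named with a single symbol. They were chosen by name as members of the clock loop, and each was read from the transcript cluster (a set of probes along one transcript) carrying only that gene's symbol. Every member was found, and Ciart alone had 2 clusters, of which the one with the higher mean level was taken. No filter on low values was applied, so all 10 were tested.

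The study compared hippocampi of mice with 1 disrupted copy of the gene for the histone acetyltransferase CBP (cbp+/-) and of wild-type mice, with and without trichostatin A (TSA, an inhibitor of histone deacetylases) and with and without exposure to novelty. RNA from pools of 3 to 4 mice was hybridised to 28 Affymetrix Mouse Gene 1.0 ST arrays, 1 pool per array. All animals were female C57/DBA F1 hybrids aged 3 months, littermates kept in groups under 12 h of light and 12 h of dark. Injected animals received TSA at 2.4 mg/kg or a vehicle of DMSO and saline into the abdomen, and hippocampi were taken 75 min after TSA.

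In each genotype 3 arrays came from mice given TSA and then 1 h of novelty, begun 15 min after the injection, in a box holding tubing and toys. Another 3 came from mice given vehicle and novelty, 3 from mice given TSA in the standard cage, and 3 from mice given vehicle in the standard cage. The last 2 arrays per genotype came from naive mice in the standard cage, so that 24 arrays were from injected mice and 4 were from naive mice. The labels give the lighting cycle but not the hour at which tissue was taken. An array averages its pool, and the p-values measure the spread between pools. In whole tissue, fewer cells of a type and less RNA per cell cannot be told apart.

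The circadian clock is a feedback loop that runs in most mammalian cells. ARNTL (also called BMAL1) pairs with CLOCK and binds E-boxes in DNA, where the pair switches on the Per and Cry genes. PER and CRY proteins then return to the nucleus and hold ARNTL and CLOCK in check. Another loop is closed by the nuclear receptors NR1D1 and NR1D2 (REV-ERB alpha and beta), which repress Arntl through ROR elements. Dbp carries the rhythm to other genes through D-boxes, and CIART and BHLHE41 are further repressors in the loop. Per1 and Per2 are in addition known to respond quickly to light, neuronal activity and glucocorticoids, in part through cyclic AMP response elements (CREs), at which the factor CREB recruits CBP.

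Promoters of Ciart and Arntl are printed because each holds the letters of an element through which the loop is known to work. A Per1 promoter is printed because it holds part of a CRE. No promoter of Per2 was available. For the other 9 of the 10 members RefSeq promoter sequences of the GRCm38.p6 build were used, with 11 promoters in all. They ran from 250 bases before to 50 bases after the start of the gene. Each was searched on both strands for the E-box CACGTG, the core of the ROR element TAGGTCA, the CRE TGACGTCA, its part TGACG, which every CRE also holds, and the D-box TTATGNAA. Capitals mark the E-boxes in Ciart (chr3:95882179-95882478, minus strand), the ROR element core in Arntl (chr7:113207261-113207560, plus strand) and the part of a CRE in Per1 (chr11:69099902-69100201, plus strand).
Ciart: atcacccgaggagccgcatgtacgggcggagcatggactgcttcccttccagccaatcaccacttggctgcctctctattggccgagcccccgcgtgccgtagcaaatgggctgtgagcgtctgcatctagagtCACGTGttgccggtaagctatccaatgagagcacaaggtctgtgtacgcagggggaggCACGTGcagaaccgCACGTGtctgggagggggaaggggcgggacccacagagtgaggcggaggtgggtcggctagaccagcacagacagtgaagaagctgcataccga
Arntl: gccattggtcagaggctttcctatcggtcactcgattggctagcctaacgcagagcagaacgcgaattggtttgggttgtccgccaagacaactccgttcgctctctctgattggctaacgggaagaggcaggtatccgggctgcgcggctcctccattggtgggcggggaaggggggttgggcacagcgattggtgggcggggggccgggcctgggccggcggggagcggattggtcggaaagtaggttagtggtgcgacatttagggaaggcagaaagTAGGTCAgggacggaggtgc
Per1: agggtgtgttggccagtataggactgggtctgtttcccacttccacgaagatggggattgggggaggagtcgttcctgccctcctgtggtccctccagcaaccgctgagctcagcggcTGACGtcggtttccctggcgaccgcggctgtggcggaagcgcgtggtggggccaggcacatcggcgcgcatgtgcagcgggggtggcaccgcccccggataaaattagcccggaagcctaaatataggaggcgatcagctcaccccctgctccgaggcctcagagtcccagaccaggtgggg

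The Ciart promoter held 3 E-boxes, which began at positions -116, -58 and -44 relative to the gene's start. Of 32851 mouse promoters of the same length, 7.15% held an E-box and 0.088% held 3 or more. Single E-boxes lay in the promoters of Bhlhe41 at -153 and Cry1 at -60, and another at -166 in a Per1 promoter upstream of the one printed, which also held a D-box at -24. The ROR element core lay at +31 in 1 of the 2 Arntl promoters, and 2.61% of all promoters held it. The part of a CRE stood at -132 in the printed Per1 promoter, at -246 in the upstream one, at -8 in Cry1 and at -209 in Cry2, and 20.81% of all promoters held it. A D-box was held by 3.38% and a full CRE by 1.79% of all promoters, and none of the 11 windows searched had the full CRE. Per2 had no window to search. These matches are letters in a window, not sites shown to be bound.

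The deposited values were log2 intensities between 2.11 and 14.02, and array medians ran from 5.46 to 5.63. Hippocampal neuron markers averaged from 7.10 (Dsp) to 11.66 (Snap25), and markers of the suprachiasmatic nucleus, the seat of the master clock, averaged from 4.15 (Vipr2) to 6.49 (Rgs16). Levels of the CBP gene itself, Crebbp, ran from 8.97 to 9.77 (median 9.42) in the 14 arrays labelled cbp+/- and from 8.68 to 9.70 (median 9.32) in the 14 wild-type arrays, so its cluster was not lower in cbp+/-. The labels do not say which part of the gene is disrupted, so that level checks nothing about the genotype labels. The injected arrays fell into 3 sets. TSA and novelty arrays that share a replicate number departed from their group means together (r between 0.52 and 0.80 over 45 pairs, against -0.63 to -0.07 for 90 pairs of unlike number). The vehicle controls, numbered 3, 4 and 5, departed with numbers 1, 2 and 3 of the other injected groups (r between 0.42 and 0.81), and not with the number they share (-0.59 to -0.29). Departures of the 3 arrays of a group cancel out by construction. The negative values therefore follow in part from the positive ones and are not separate evidence. The injected arrays matched by their departures are called array sets 2, 3 and 4, and the 4 naive arrays array set 1. Naive arrays were left out of these correlations, so that they form 1 set was assumed. For the vehicle controls the set is read from the data and not from the labels, and the labels do not say what a set is. Choroid plexus markers averaged over 0.9 log2 units above their median level on 3 arrays of array set 2, at 1.37 on 1 of cbp+/- mice given TSA in the cage, 1.59 on 1 of wild-type mice given TSA and novelty, and 1.66 on 1 of cbp+/- mice given vehicle in the cage. These 3 are called the choroid plexus arrays. Below that cut, the next highest array was 1 of cbp+/- mice given TSA and novelty, in set 3, at 0.737, and the first naive array of wild type stood at 0.53.

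Array set carried much of the spread of the clock genes. Over the 24 injected arrays it took 74.3% of the sum of squares of Per1, 73.0% of Per2, 70.4% of Nr1d1 and 66.8% of Cry2, and the 8 injected groups took 15.4%, 18.6%, 15.1% and 22.7% of the same genes. Nr1d2 was divided more evenly, with 48.0% by set and 43.9% by group. Cry1 went the other way, with 6.8% by set and 65.2% by group. The set means of Per1 were 8.52, 7.99 and 7.52 in sets 2, 3 and 4, and those of Per2 were 7.56, 7.42 and 6.84, so that both period genes were highest in set 2 and lowest in set 4. Differences between conditions were therefore tested with limma in 2 ways, without and with array set as a block, and both are given where the call differs. The median residual SD over genes was 0.125 with the block and 0.179 without it.

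**Figure D1:**
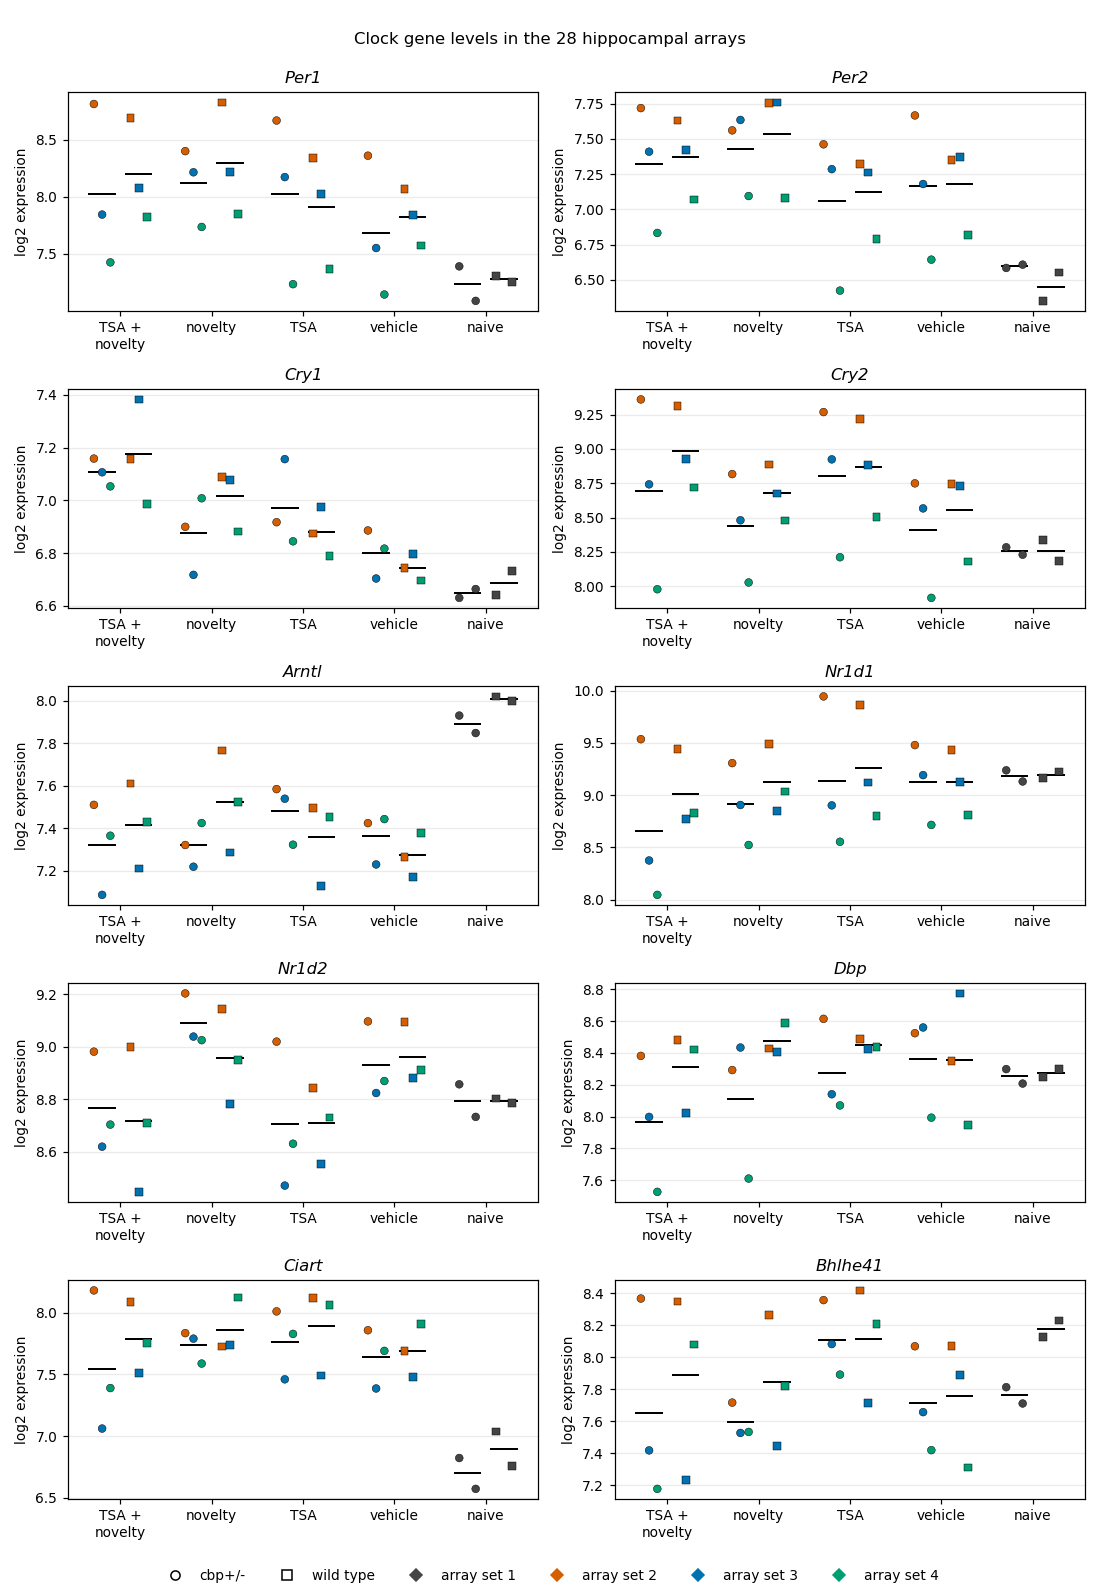
Log2 levels of the 10 clock genes on all 28 arrays, with conditions from left to right TSA plus novelty, vehicle plus novelty, TSA in the cage, vehicle in the cage and naive. Circles are cbp+/- arrays, squares wild-type arrays, colours the array sets 1 to 4, and short bars the group means; the naive arrays stand above all others for Arntl and below all others for Ciart.

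Across the design, 6 of the 10 members passed the threshold (adjusted p under 0.05 over all 19938 genes) in at least 1 averaged comparison. Each of these differences was under 1 log2 unit. Of all genes 2.41% passed in vehicle against naive, which allows no block. With the block 0.481% of all genes passed with novelty and 4.63% with TSA. Against naive mice, vehicle-injected mice had less Arntl and more Ciart, where injection and array set cannot be told apart. With array set as a block, Per2 rose with novelty, and with TSA Cry1 and Cry2 rose and Nr1d2 fell. Without the block none of these novelty and TSA differences passed the threshold. Per1, Nr1d1, Dbp and Bhlhe41 passed in no averaged comparison in either fit, and no member passed in the comparison of the genotypes.

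**Figure D2:**
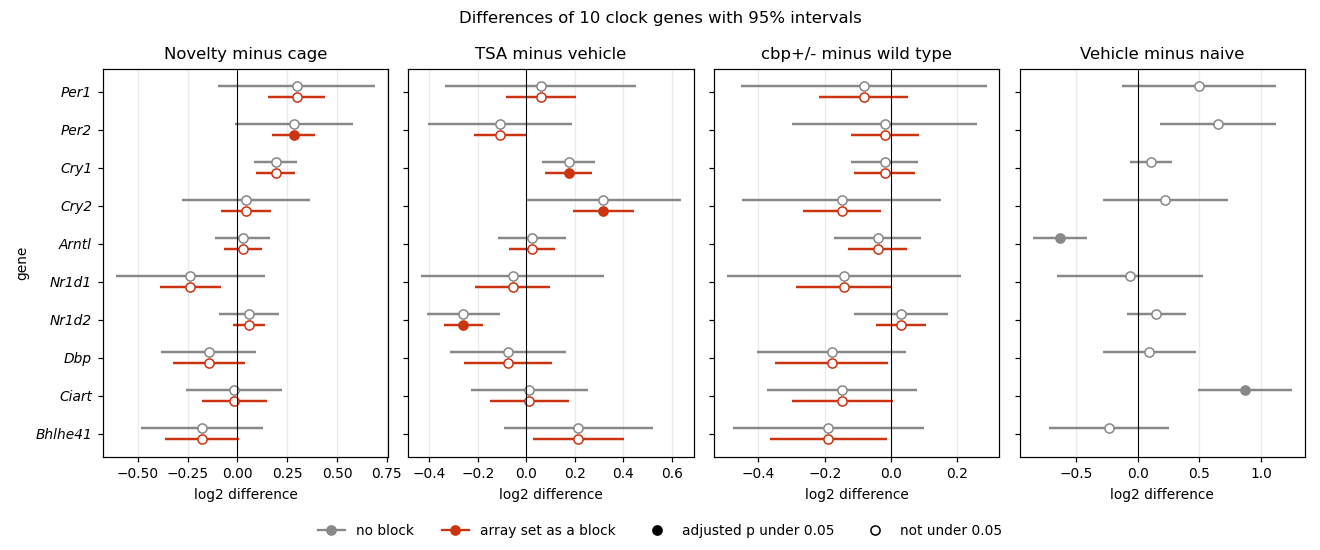
Log2 differences of the 10 clock genes in 4 averaged comparisons (novelty minus cage, TSA minus vehicle, cbp+/- minus wild type, vehicle-injected minus naive), with 95% intervals. Grey is the fit without a block and red the fit with array set as a block, which the naive arrays do not allow; filled points have a limma adjusted p under 0.05, such as Arntl at -0.63 and Ciart at 0.87 in the vehicle comparison.

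Arntl, the activator at the head of the loop, was lower in every injected mouse pool than in every naive pool. In vehicle-injected mice in the cage it stood at 7.42, 7.23 and 7.44 in cbp+/- and at 7.27, 7.17 and 7.38 in wild type (array sets 2, 3 and 4), against 7.93 and 7.85 in naive cbp+/- and 8.02 and 7.999 in naive wild type. The highest vehicle array lay below the lowest naive array. The share of all genes whose arrays stood apart in this way is not given here. Averaged over genotypes Arntl fell by 0.63 ± 0.11 on the log2 scale (SE; 95% interval -0.85 to -0.41; limma adjusted p = 0.00264; 6 arrays against 4), which is 0.65 times the naive level. In this comparison 480 of 19938 genes, or 2.41%, passed, and 2 of the 10 members were among them. The fall passed in each of 10 fits that left out 1 array, with adjusted p between 0.00423 and 0.0266.

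Within genotypes the Arntl difference was -0.52 in cbp+/- (adjusted p = 0.371 in limma's test) and -0.74 ± 0.15 in wild type (adjusted p = 0.0305). In the wild-type comparison 0.391% of all genes passed and Arntl was the 1 member among them, but it no longer passed when any of the 5 arrays was left out. In the cbp+/- comparison 0% of genes passed, although 1107 had an unadjusted p under 0.05. Over all 24 injected arrays, with whatever drug and housing, Arntl ran from 7.09 to 7.77 with a median of 7.40, and the naive arrays ran from 7.85 to 8.02. Among the injected groups its means spanned only 7.27 ± 0.10 (vehicle in the cage, wild type) to 7.53 ± 0.24 (vehicle and novelty, wild type; SD, n = 3 each). Its novelty difference was 0.03 ± 0.05 and its TSA difference 0.02 ± 0.05 with the block, and neither passed.

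Ciart, a repressor of ARNTL and CLOCK, changed in the opposite direction. Vehicle-injected mice had 7.86, 7.39 and 7.69 in cbp+/- and 7.69, 7.48 and 7.91 in wild type (sets 2, 3 and 4), against 6.82 and 6.57 in naive cbp+/- and 7.04 and 6.76 in naive wild type. All vehicle arrays lay above all naive arrays, and the share of all genes that stood apart so is again not given. Ciart rose by 0.87 ± 0.18 (95% interval 0.49 to 1.25; limma adjusted p = 0.0126), 1.83 times the naive level. Leaving out the second naive array of wild type (0.80, adjusted p = 0.0835) or of cbp+/- (0.81, adjusted p = 0.0828) ended the call, and the other 8 fits kept it.

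The lower-mean Ciart cluster, whose levels followed the first over the 28 arrays (r = 0.927), gave 0.94 ± 0.19 (adjusted p = 0.0086 in limma's test). Within genotypes the differences of Ciart were 0.95 in cbp+/- and 0.79 in wild type, and neither passed (adjusted p = 0.321 and 0.177). The 24 injected arrays spanned 7.06 to 8.18 (median 7.75), again clear of the naive range of 6.57 to 7.04. Group means of the injected arrays ran from 7.54 ± 0.58 (TSA and novelty, cbp+/-) to 7.89 ± 0.35 (TSA in the cage, wild type), a difference smaller than the SD of the first. Its novelty difference was -0.02 ± 0.08 and its TSA difference 0.01 ± 0.08 with the block, and neither passed.

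The naive arrays were taken as the whole of array set 1, so for Arntl and Ciart injection and array set cannot be told apart. The p-values of vehicle against naive do not measure how far set 1 may stand from the other sets apart from injection. The gap to set 1 was larger than the gaps among sets 2, 3 and 4: Arntl averaged 7.50, 7.23 and 7.42 in those sets and 7.95 in set 1, and Ciart 7.94, 7.49 and 7.79 in those sets and 6.80 in set 1. Other gene lists differed in the same comparison. Of 17 genes known to be induced by glucocorticoids 16 had a positive difference, 3 passed upward, and the median was 0.43 where the median of all genes was 0.0085. All 8 immediate early genes were positive, with 1 passing and a median of 0.42. The mean of the glucocorticoid list ran from 7.14 to 7.75 on the vehicle arrays and from 7.07 to 7.18 on the naive arrays. Hippocampal neuron markers were positive for 8 of 10 genes (list mean 8.44 to 8.58 on vehicle arrays, 8.28 to 8.46 on naive arrays). Thalamic markers were positive for 1 of 6 (6.14 to 6.66 on vehicle arrays, 6.54 to 6.83 on naive arrays), and endothelial markers for 1 of 4 (6.87 to 7.35 on vehicle arrays, 7.35 to 7.48 on naive arrays). Astrocyte markers were positive for 1 of 5 (8.72 to 9.10 on vehicle arrays, 8.95 to 9.13 on naive arrays) and oligodendrocyte markers for 4 of 4 (8.62 to 9.08 on vehicle arrays, 8.50 to 8.72 on naive arrays). The part of these lists in the changes of Arntl and Ciart was not tested.

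None of the other 8 members passed in the averaged vehicle comparison. Per2 was above every naive array on all 6 vehicle arrays, with a difference of 0.65 ± 0.23 that did not pass (adjusted p = 0.148 in limma's test), and 23 of the 24 injected arrays exceeded the highest naive value. Per1 differed by 0.49 ± 0.30 (adjusted p = 0.512), Bhlhe41 by -0.23 ± 0.23 (adjusted p = 0.748) and Cry2 by 0.22 ± 0.24 (adjusted p = 0.779). Nr1d2 at 0.15, Cry1 at 0.11, Dbp at 0.09 and Nr1d1 at -0.06 did not pass either. Of the 10 members 7 were positive and the median over the members was 0.13.

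Of 19 other genes of the clock pathway, none rose and 2 fell in vehicle-injected against naive mice, where 1.32% of all genes fell. These were Rorb (-0.74 ± 0.13, limma adjusted p = 0.00336), a receptor that binds ROR elements and that is also on the thalamic marker list, and Nono (-0.30 ± 0.07, adjusted p = 0.0269), an RNA-binding protein known as a partner of PER proteins. Their median was -0.03.

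Per2, a repressor of the loop that also responds to stimuli, was higher after novelty. With TSA, the novelty arrays read 7.72, 7.41 and 6.83 in cbp+/- and 7.63, 7.42 and 7.07 in wild type (sets 2, 3 and 4), against 7.46, 7.29 and 6.42 in cbp+/- and 7.32, 7.26 and 6.79 in wild type in the cage. With vehicle they read 7.56, 7.63 and 7.09 in cbp+/- and 7.75, 7.76 and 7.08 in wild type, against 7.67, 7.18 and 6.64 in cbp+/- and 7.35, 7.37 and 6.82 in wild type in the cage. The pooled ranges overlapped, but within a set the novelty array was the higher in 11 of 12 pairs. The exception was cbp+/- with vehicle in set 2, and the pair differences ran from -0.11 to 0.45 with a median of 0.30.

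Averaged over genotype and drug, Per2 rose by 0.28 ± 0.05 with novelty in the limma fit with the array set block (95% interval 0.17 to 0.39; adjusted p = 0.00442; 12 arrays against 12), or 1.22 times. In that fit 0.481% of all genes passed, and Per2 was the 1 member of 10. Without the block the SE was 0.14 and no member passed, with 0.16% of all genes passing. An unadjusted limma p under 0.05 was reached there by 1 member of 10 and by 2.48% of all genes. The differences within sets 2, 3 and 4 were 0.22, 0.28 and 0.35. Leaving out any single array kept the call in all 24 fits (adjusted p between 0.000816 and 0.0154), and leaving out the whole of set 3 (0.28, adjusted p = 0.097) or of set 4 (0.25, adjusted p = 0.126) ended it.

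Only 6 of the 12 pairs rest on the labels alone, those between the TSA arrays with and without novelty. In these Per2 was higher with novelty in 6 of 6 pairs, by 0.12 to 0.41. A limma fit of the 18 TSA and novelty arrays with the label number as a block gave 0.26 ± 0.07 for Per2 (adjusted p = 0.562), and no member passed where 0.1% of all genes did. The 4 separate novelty differences of Per2 were 0.26 in cbp+/- and 0.25 in wild type with TSA, and 0.27 in cbp+/- and 0.35 in wild type with vehicle, each with an SE of 0.11.

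Per1, which is best known for its quick response to light and activity, had a novelty difference of the same sign as Per2, with a larger SE. The novelty arrays with TSA read 8.81, 7.84 and 7.42 in cbp+/- and 8.69, 8.08 and 7.82 in wild type, against 8.67, 8.17 and 7.23 in cbp+/- and 8.34, 8.03 and 7.37 in wild type in the cage. With vehicle they read 8.40, 8.21 and 7.74 in cbp+/- and 8.82, 8.22 and 7.85 in wild type, against 8.36, 7.55 and 7.14 in cbp+/- and 8.07, 7.84 and 7.57 in wild type in the cage. Within sets the novelty array was the higher in 11 of 12 pairs, with a median difference of 0.31. The exception, at -0.33, was cbp+/- with TSA in set 3.

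The averaged novelty difference of Per1 was 0.30 ± 0.07 with the block (95% interval 0.15 to 0.44), and its adjusted p of 0.0535 in limma's test missed the threshold. It passed in 8 of the 24 fits that left out 1 array, and in the fit without the 3 choroid plexus arrays (0.34, adjusted p = 0.0438). By background the differences were 0.00 in cbp+/- and 0.28 in wild type with TSA, and 0.43 in cbp+/- and 0.47 in wild type with vehicle, with an SE of 0.14 each. The test of that contrast, the interaction of TSA with novelty, gave -0.31 for Per1 (95% interval -0.60 to -0.02; adjusted p = 1.0 in limma's fit with the block), and 0% of all genes passed in it.

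Cry1, the cryptochrome whose protein represses ARNTL and CLOCK, was raised by TSA and had the highest share of its spread between groups. The TSA arrays with novelty read 7.16, 7.11 and 7.05 in cbp+/- and 7.16, 7.38 and 6.99 in wild type, against 6.90, 6.72 and 7.01 in cbp+/- and 7.09, 7.08 and 6.88 in wild type with vehicle and novelty. In the cage the TSA arrays read 6.92, 7.16 and 6.84 in cbp+/- and 6.87, 6.97 and 6.79 in wild type, against 6.89, 6.70 and 6.82 in cbp+/- and 6.74, 6.80 and 6.70 in wild type with vehicle. The TSA array was the higher in 12 of 12 pairs within sets, although in the smallest by 0.03, and the pooled ranges overlapped.

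With the block Cry1 rose by 0.17 ± 0.05 with TSA (95% interval 0.08 to 0.27; limma adjusted p = 0.0314; 12 arrays against 12), or 1.13 times. TSA was the comparison with the most calls, 4.63% of all genes, and 3 of the 10 members were among them. Without the block 0.331% of all genes passed and no member did, with a limma adjusted p of 0.235 for Cry1. An unadjusted p under 0.05 was reached there by 2 of the 10 members and by 5.98% of all genes. The call held in 16 of 24 fits without 1 array, and it was lost without set 2 (0.20, adjusted p = 0.17) or without set 3 (0.09, adjusted p = 0.38). In the 6 pairs given by the labels, which are the novelty arrays with TSA and with vehicle, Cry1 was higher with TSA in 6 of 6, by 0.05 to 0.39. The fit of those arrays alone gave 0.20 ± 0.07 (limma adjusted p = 0.322), and no member passed where 0.391% of all genes did.

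The novelty difference of Cry1 was also positive, at 0.19 ± 0.05 with the block (adjusted p = 0.069 in limma's test, 11 of 12 pairs positive), which missed the threshold and passed in 3 of 24 fits without 1 array. When both were given, wild-type Cry1 rose by 0.43 ± 0.09 over vehicle in the cage with the block (95% interval 0.24 to 0.62; limma adjusted p = 0.0321; 3 arrays against 3), or 1.35 times. All 3 wild-type arrays with TSA and novelty, at 6.99 to 7.38, lay above the 3 with vehicle in the cage, at 6.70 to 6.80. Cry1 was the 1 member of 10 called there, with 0.552% of all genes passing with the block and 0.00502% without it (adjusted p of Cry1 without it, 0.515). The call was lost in 5 of the 6 fits without 1 array.

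In cbp+/- mice the same comparison gave 0.30 ± 0.09 for Cry1, which did not pass (adjusted p = 0.23 in limma's test), with 0.206% of all genes passing. All 3 cbp+/- arrays with TSA and novelty, at 7.05 to 7.16, lay above the 3 with vehicle in the cage, at 6.70 to 6.89. This comparison uses the same vehicle arrays as the separate novelty and TSA comparisons, so these values are not independent of one another. The interaction of TSA with novelty was 0.04 for Cry1 (95% interval -0.15 to 0.24), an interval that reaches 0.24 above the sum of both effects. The lowest group means of Cry1 were those of the naive groups, 6.65 ± 0.02 in cbp+/- and 6.69 ± 0.06 in wild type (SD, n = 2 each), and the highest was that of wild-type mice with TSA and novelty, 7.18 ± 0.20 (n = 3).

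Cry2, the second cryptochrome, rose with TSA by more than Cry1 but followed array set closely. With novelty the TSA arrays read 9.36, 8.74 and 7.98 in cbp+/- and 9.32, 8.93 and 8.72 in wild type, against 8.82, 8.48 and 8.03 in cbp+/- and 8.89, 8.67 and 8.48 in wild type with vehicle. In the cage the TSA arrays read 9.27, 8.92 and 8.21 in cbp+/- and 9.22, 8.88 and 8.50 in wild type, against 8.75, 8.57 and 7.91 in cbp+/- and 8.75, 8.73 and 8.18 in wild type with vehicle. The TSA array was the higher in 11 of 12 pairs, and the exception was cbp+/- with novelty in set 4, at -0.05. The median pair difference was 0.31.

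Cry2 rose by 0.32 ± 0.06 with the block (95% interval 0.19 to 0.44; limma adjusted p = 0.0025), or 1.25 times, and stayed past the threshold in all 24 fits without 1 array (adjusted p between 0.000291 and 0.00679). Without the block its adjusted p was 0.844. The difference was largest in set 2, at 0.49, and without that set it was 0.23 (adjusted p = 0.114). All 3 choroid plexus arrays lie in set 2, and 2 of them are TSA arrays, as is the array of set 3 that came next. In set 2 the Cry2 difference was 0.519 in cbp+/- in the cage, where both arrays are choroid plexus arrays. It was 0.429 in wild type with novelty, where the TSA array is one. In the pairs without such arrays it was 0.544 in cbp+/- with novelty and 0.469 in wild type in the cage. The part of choroid plexus tissue in the Cry2 difference was not tested. Choroid plexus markers were positive with TSA for 10 of 10 genes, with a median of 0.14 and none passing. Their list mean ran from 4.84 to 6.61 on the TSA and novelty arrays and from 4.88 to 6.39 on the TSA cage arrays, against 4.82 to 5.48 with vehicle and novelty and 4.87 to 6.68 with vehicle in the cage. Novelty left Cry2 at a difference of 0.04 ± 0.06, with a 95% interval from -0.08 to 0.17.

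Nr1d2, the nuclear receptor REV-ERB beta, fell with TSA. With novelty the TSA arrays read 8.98, 8.62 and 8.70 in cbp+/- and 9.0002, 8.45 and 8.71 in wild type, against 9.20, 9.04 and 9.03 in cbp+/- and 9.14, 8.78 and 8.95 in wild type with vehicle. In the cage they read 9.02, 8.47 and 8.63 in cbp+/- and 8.84, 8.55 and 8.73 in wild type, against 9.10, 8.82 and 8.87 in cbp+/- and 9.10, 8.88 and 8.91 in wild type with vehicle. The TSA array was the lower in every one of the 12 pairs, by 0.08 to 0.42. In 2 of the 4 backgrounds, wild type in the cage and cbp+/- with novelty, all 3 TSA arrays lay below all 3 vehicle arrays.

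Nr1d2 fell by 0.26 ± 0.04 with the block (95% interval -0.34 to -0.18; limma adjusted p = 0.000209), or to 0.84 times the vehicle level. It passed in all 24 fits without 1 array and in each of the 3 fits without an array set. Without the block its adjusted p was 0.186, and it passed there after the arrays were quantile-normalized again (-0.25, adjusted p = 0.013) and without the choroid plexus arrays (-0.31, adjusted p = 0.047). The fit of the labelled pairs alone gave -0.28 ± 0.06 (limma adjusted p = 0.0521), with 6 of 6 pairs negative. The 4 separate differences were -0.32 in cbp+/- and -0.24 in wild type with novelty, and -0.22 in cbp+/- and -0.25 in wild type in the cage, each with an SE of 0.08 and none passing alone.

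**Figure D3:**
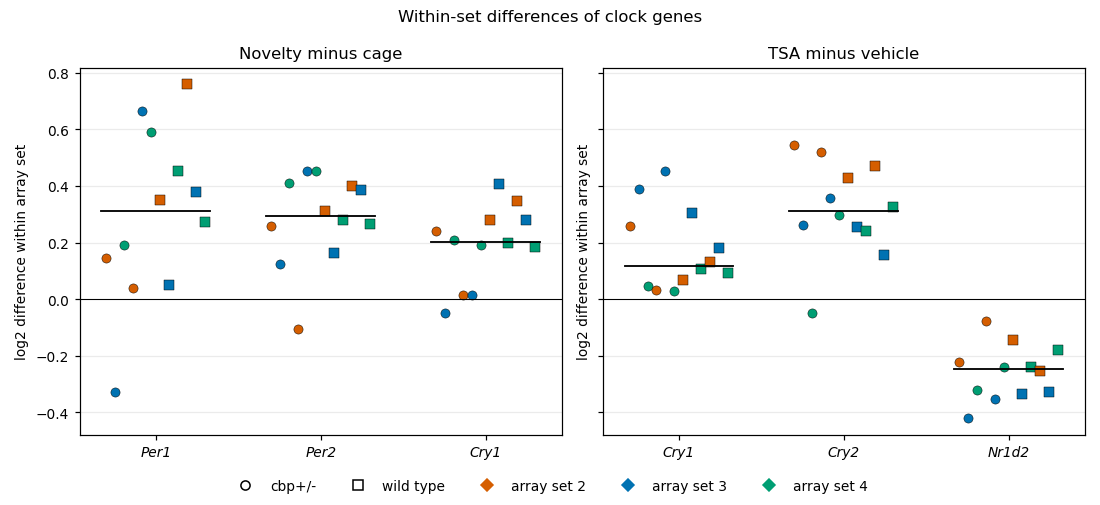
Differences in log2 level between arrays of the same array set and genotype, 12 per gene: novelty minus cage for Per1, Per2 and Cry1, and TSA minus vehicle for Cry1, Cry2 and Nr1d2. Lines are medians; all 12 differences of Nr1d2 lie below 0 and all 12 TSA differences of Cry1 above it.

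Nr1d1, the receptor REV-ERB alpha, passed in neither the TSA nor the novelty comparison. Its TSA arrays ran from 8.05 to 9.94 (median 8.87) and its vehicle arrays from 8.52 to 9.49 (median 9.08), and the TSA difference was -0.06 ± 0.08 with the block. Its novelty arrays ran from 8.05 to 9.54 (median 8.88) and its cage arrays from 8.55 to 9.94 (median 9.12). The novelty difference was -0.24 ± 0.08 with a negative sign in 9 of 12 pairs, but did not pass (adjusted p = 0.236 in limma's test). Group means ran from 8.65 ± 0.78 in cbp+/- with TSA and novelty to 9.26 ± 0.54 in wild type with TSA in the cage (SD, n = 3 each), and the naive groups lay between, at 9.18 ± 0.08 in cbp+/- and 9.19 ± 0.05 in wild type (n = 2 each).

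Dbp, an output gene of the clock, read 7.53 to 8.59 (median 8.39) on novelty arrays and 7.95 to 8.77 (median 8.43) on cage arrays. Its novelty difference of -0.14 ± 0.09 was negative in 10 of 12 pairs and did not pass (adjusted p = 0.726 in limma's fit with the block). With TSA it was -0.08 ± 0.09. Its lowest group mean was 7.97 ± 0.43, in cbp+/- with TSA and novelty, and its highest 8.47 ± 0.10, in wild type with vehicle and novelty.

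Bhlhe41, a repressor that competes at E-boxes, passed in neither comparison. It read 7.18 to 8.42 (median 8.08) on TSA arrays and 7.31 to 8.27 (median 7.69) on vehicle arrays, with a difference of 0.21 ± 0.09 that did not pass (adjusted p = 0.221 in limma's fit with the block). The novelty difference was -0.18 ± 0.09 (adjusted p = 0.618). The means of its injected groups had SDs from 0.11 to 0.63.

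As a list, the members had medians near 0 with novelty and TSA. With novelty 6 of 10 were positive with a median of 0.03, where the median of all genes was 0.0014, and with TSA 6 of 10 were positive with a median of 0.02, where that of all genes was 0.00283. Among the 19 other clock pathway genes, 2 rose with novelty with the block, where 0.471% of all genes rose: Nfil3 (0.41 ± 0.07, limma adjusted p = 0.00318), a repressor at D-boxes, and Bhlhe40 (0.30 ± 0.07, adjusted p = 0.0318), the close relative of Bhlhe41. Neither passed without the block, and with TSA 0 of the 19 passed in either fit. With TSA an unadjusted limma p under 0.05 was reached by 1 of the 19 with the block, against 16.2% of all genes. Without the block 0 of the 19 reached it, against 5.98% of all genes. The immediate early genes, a sign of neuronal activity, rose with novelty in 8 of 8 cases with and without the block, with a median of 1.15. Of the 17 glucocorticoid-induced genes, all had a positive novelty difference and 3 passed with the block, with a median of 0.14. The mean of that list ran from 7.46 to 7.79 with TSA and novelty and from 7.38 to 8.01 with vehicle and novelty, against 7.36 to 7.57 with TSA and 7.14 to 7.75 with vehicle in the cage. Its part in the Per2 difference was not tested.

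Genotype moved no member past the threshold. Averaged over the 5 conditions, the difference of cbp+/- from wild type was negative for 9 of the 10 members, with a median of -0.11 where that of all genes was -0.00149. In the limma fit without the block 0 genes (0%) passed and 475 had an unadjusted p under 0.05, none of them a member. With the block 0.522% of all genes passed and no member did, and 3 members had an unadjusted p under 0.05, as had 9.59% of all genes: Bhlhe41 (-0.19 ± 0.09, adjusted p = 0.47), Dbp (-0.18 ± 0.08, adjusted p = 0.479) and Cry2 (-0.15 ± 0.06, adjusted p = 0.352). The 95% intervals allow a difference of at most -0.36 for Bhlhe41, -0.35 for Dbp and -0.27 for Cry2. The pairs within sets were uneven. In set 4 they ran from -0.902 to 0.108 for Bhlhe41, -0.979 to 0.045 for Dbp and -0.742 to -0.264 for Cry2. In set 3 they ran from -0.232 to 0.368, -0.283 to 0.029 and -0.194 to 0.04 for these genes. In set 2 they ran from -0.547 to 0.018, -0.135 to 0.173 and -0.07 to 0.053. Within single conditions no member passed in either fit, where between 0% and 0.00502% of all genes did. Intervals of the averaged difference were narrow for Cry1 (-0.11 to 0.07), Nr1d2 (-0.05 to 0.10) and Per2 (-0.12 to 0.08).

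Whether cbp+/- mice responded differently was tested by interactions, in which 0% of all genes passed in limma's fits with and without the block. For genotype and TSA the interaction was -0.03 for Nr1d2 (95% interval -0.19 to 0.13), 0.01 for Cry2 (-0.24 to 0.26) and 0.05 for Cry1 (-0.14 to 0.25), with the block. The interval of Cry1 includes a difference as large as its whole TSA change, so similar responses of the genotypes are not shown. For genotype and novelty it was -0.04 for Per2 (-0.25 to 0.18), -0.16 for Per1 (-0.45 to 0.13) and -0.18 for Cry1 (-0.37 to 0.01). Arntl, at -0.26 ± 0.09 (adjusted p = 0.625 in limma's fit with the block), was the 1 member of 10 with an unadjusted p under 0.05 in that test. Of all genes 7.8% had such a p there. In the 4 novelty and 4 TSA comparisons within a single background, no member passed in either fit, where between 0% and 0.16% of all genes did, and members with an unadjusted p under 0.05 numbered at most 4 of 10 in any of them. With the block these were 4 in TSA in the cage in cbp+/-, against 6.02% of all genes, and 4 in novelty with vehicle in wild type, against 8.14% of all genes.

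Members differed in whose company they kept across the 28 arrays after array set means were subtracted. These correlations are descriptions over arrays that share the conditions, and they carry no test. Per1 and Per2 went together (r = 0.727, and 0.909 before the subtraction), as did Nr1d1 and Dbp (0.778). Dbp and Bhlhe41 (0.619), Cry2 and Bhlhe41 (0.621), and Nr1d1 and Ciart (0.599) followed. After the subtraction Nr1d2 ran against both cryptochromes, at -0.543 with Cry1 (-0.269 before) and at -0.538 with Cry2 (0.118 before). The sign turned in 11 of the 45 pairs, 6 of them with Arntl, such as Per1 and Arntl at 0.583 after and -0.191 before the subtraction.

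**Figure D4:**
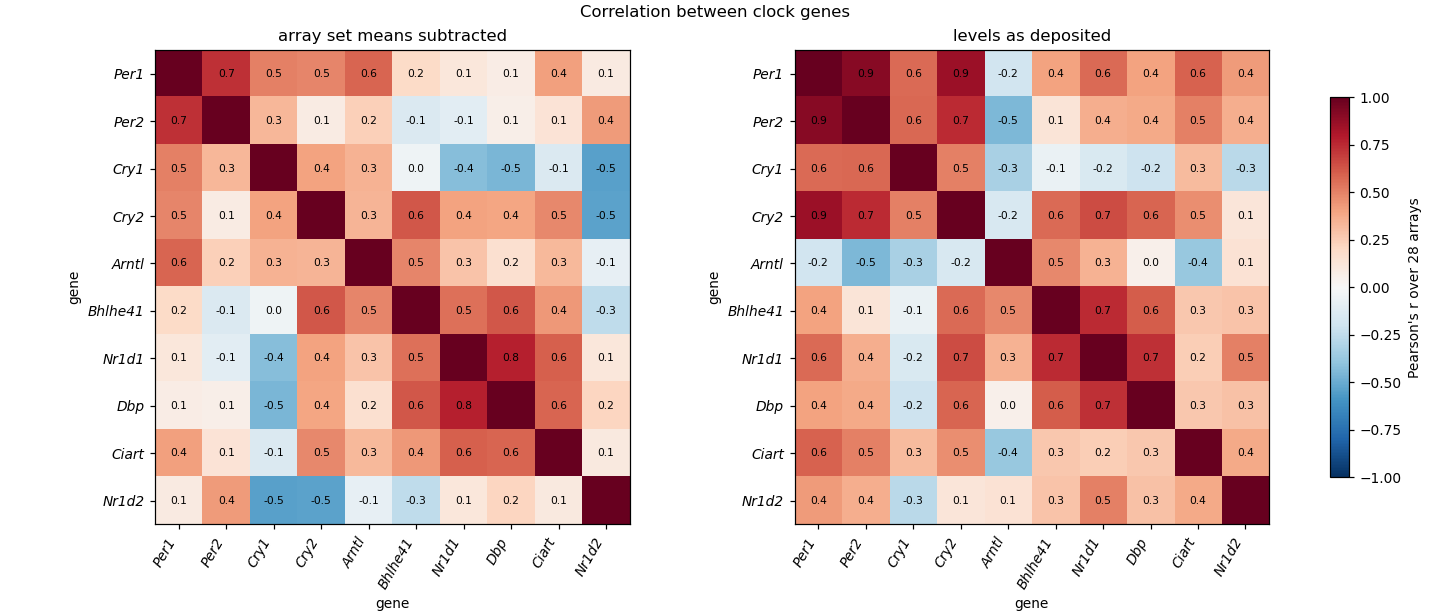
Pearson correlations between the 10 clock genes over the 28 arrays, with array set means subtracted and as deposited. After the subtraction Nr1d1 and Dbp reach 0.778, and Nr1d2 with Cry1 and Cry2 stands at -0.543 and -0.538.

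Of all 19938 genes, those most like Per2 after the subtraction were Egr1 (r = 0.833), Nr4a1 (0.804) and Npas4 (0.796), all of them immediate early genes. Those most like Per1 were Kdm6b (0.836), Spen (0.797) and Sik1 (0.793). The closest to Cry1 were Lonrf3 (0.795), Man2a1 (0.78) and Slc15a4 (0.779), and to Cry2 Zfp667 (0.903), Tfe3 (0.893) and Rhof (0.888). Nr1d2 was nearest to Setmar (0.852), Zfp866 (0.831) and Lratd1 (0.825), and Nr1d1 to B4galnt4 (0.808), Rbfox1 (0.806) and Mblac1 (0.798). Arntl had lower values, with Sesn1 (0.767), Snord58b (0.762) and Tctn3 (0.753). Dbp was nearest to Ajm1 (0.892), Faim2 (0.863) and Syp (0.855), Ciart to Syt17 (0.768), Islr2 (0.728) and Lin7b (0.696), and Bhlhe41 to Acvr1b (0.843), Napepld (0.839) and Serinc5 (0.83).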

How the data were processed

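The authors deposited log2 expression values per transcript cluster of 28 Affymetrix Mouse Gene 1.0 ST arrays, normalized by RMA in GeneSpring GX 11 per the labels and the submitters' processing notes. These log2 values were kept. Depth has no meaning for arrays, and the number of arrays limits the precision.

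Of 35556 clusters, 21789 had 1 gene symbol, 1621 had several and 12146 had no entry in the platform table. Each of the 19938 single-symbol genes was read from its cluster with the highest mean. The test was limma (version 3.58.1, run in R 4.3.3: lmFit and eBayes, 10 group means, all 28 arrays, two-sided, Benjamini-Hochberg adjustment over 19938 genes, threshold 0.05), first without a block. Replicate numbers of the TSA and novelty arrays pair them (r 0.52 to 0.80 within a number), and vehicle numbers 3, 4 and 5 were matched to numbers 1, 2 and 3 from the data, so array set was then added as a block. The script was tested on simulated data.

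The members and gene lists were chosen with earlier results of these data known. All 10 members were named, together with other clock pathway genes that passed in an averaged comparison and the 3 genes most like each member. Some genes of the lists are not reported here. Alternatives chosen after the data were seen were the lower-mean Ciart cluster, the fits with the block that leave out an array set or the choroid plexus arrays, and the fit of the labelled pairs alone.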

Additional observations from a re-analysis of the deposited data

How the results depend on the processing

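Counts below are of the 10 clock genes passing limma's threshold. With array set as a replicate block the count was 1 for novelty, 3 for TSA and 1 for TSA plus novelty in wild type, each 0 without the block. With that block, novelty gave 2 without the choroid plexus arrays and 0 without array set 3 or 4, TSA gave 1 without array set 2, and TSA plus novelty in wild type gave 0 without those arrays or without set 2, 3 or 4. Pairing by label number on the TSA and novelty arrays alone gave 0 for novelty and 0 for TSA. Without a block, TSA gave 1 after repeated quantile normalization and 1 without the choroid plexus arrays. Vehicle against naive in wild type (1 in the main fit) gave 3 with array quality weights (12.3% of all genes passing) and 0 with an intensity trend or only the arrays compared, and in cbp+/- 2 with quality weights (1.04%). Leaving out 1 array at a time gave 1 to 3 for novelty, 2 to 3 for TSA and 0 to 1 for TSA plus novelty in wild type (all with the block), 1 to 2 for vehicle against naive, and 0 in wild type. No block by array set was possible for vehicle against naive, since the naive arrays were taken as a set of their own.

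Numbers 4 and 5 in the labels are held by vehicle controls alone. A replicate block by the label number as it stands therefore sets vehicle against the other injected groups through number 3 only. It joins vehicle number 3 (array set 2) to number 3 of those groups (array set 4), with which those vehicle arrays correlate negatively. It gave counts of 3 for novelty, 3 and 2 for novelty with vehicle in cbp+/- and wild type, 4 for TSA, 4 and 3 for TSA in the cage in cbp+/- and wild type, 4 and 4 for TSA plus novelty, 7 for vehicle against naive (6 in cbp+/-, 7 in wild type) and 3 for the interaction of TSA with novelty. In those fits 27.8% to 36% of all genes passed for vehicle against naive and 15.8% to 19.9% in the others. Signs turned under it for Cry2 (-0.30) with novelty, for Per2 (-0.49) and Cry2 (-0.66) in cbp+/- and Cry2 (-0.57) and Nr1d1 (-0.71) in wild type with vehicle and novelty, and for Per1 (-0.43) with TSA. They turned for Per1 (-0.64) and Nr1d1 (-0.71) in cbp+/-, and for Per1 (-0.90) in wild type, with TSA in the cage. With TSA plus novelty they turned for Per1 (-0.64) and Per2 (-0.60) in cbp+/- and Per1 (-0.61) and Per2 (-0.57) in wild type. Nr1d1 against naive became 0.84 (0.85 in cbp+/-, 0.84 in wild type), and the interaction of TSA with novelty became 0.67 for Per1, 0.71 for Per2 and 0.62 for Cry2. The cause was not tested. Of all alternatives to changes of single members, 7531 kept direction and side of the threshold, 633 changed sign without passing in either fit, 52 passed newly, 35 no longer passed, and these 19 turned with a pass in 1 of the fits or both.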
